A study of Homo sapiens with 9 samples.

Results

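The genes described here are 6 components of the aryl hydrocarbon receptor (AHR) pathway: the receptor AHR, its DNA-binding partner ARNT, the repressor AHRR, and the target genes CYP1A1, CYP1B1 and TIPARP. They are 6 of the 26475 gene rows of an RNA-seq table and were picked by symbol, with earlier results of the same libraries known, so their differences between groups are given as a description and were not tested. All 6 passed the filter on low counts, as 14135 genes did. MDA-MB-231 is a human triple-negative breast adenocarcinoma line, and it was measured in 3 groups of 3 libraries. The first group, called PRGL493 below, is control cells treated with PRGL493, an inhibitor of the acyl-CoA synthetase ACSL4. The second, called knockdown, stably carries pLKO.1-shACSL4, a lentiviral vector with a hairpin RNA against ACSL4. The third, called control, stably carries the empty pLKO.1 vector and has no treatment. All cells had thus been transduced with pLKO.1, PRGL493 was given only to cells with the empty vector, and 1 hairpin construct is named. Dose, duration of exposure and vehicle of PRGL493 are not stated in the labels, and the control group is labelled as without treatment. According to the series text, each group's 3 libraries came from different batches of its cells, so the spread between them covers such batches and not independently transduced populations.

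AHR is a ligand-activated transcription factor that waits in the cytoplasm in a complex with HSP90 and co-chaperones. When a planar aromatic pollutant, a dietary indole or a tryptophan metabolite binds, it moves to the nucleus, pairs with ARNT and binds DNA at short response elements. Its best known targets are the CYP1 cytochromes, which oxidise aromatic hydrocarbons and oestrogens, and the feedback genes AHRR and TIPARP, whose products dampen the receptor. CYP1B1 is the CYP1 enzyme often described in breast and other tissues outside the liver. Comparing the inhibitor with the hairpin asks whether levels of these genes moved with the compound, with loss of ACSL4, or with both.

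The letters GCGTG are the core of the AHR response element, and promoters of the members were searched for them on both strands. Sequence was taken from RefSeq on GRCh38.p14 as the 250 bases before each annotated start, and the table held such windows for AHR, AHRR, ARNT, CYP1A1 and TIPARP. The windows before the first starts of CYP1A1, AHRR and TIPARP held the core and are printed 5′ to 3′ on the strand of the gene, because these 3 genes are AHR targets whose levels differed between groups. Capitals mark the core, written CACGC where it lies on the opposite strand.

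CYP1A1, chr15:74725529-74725778, minus strand: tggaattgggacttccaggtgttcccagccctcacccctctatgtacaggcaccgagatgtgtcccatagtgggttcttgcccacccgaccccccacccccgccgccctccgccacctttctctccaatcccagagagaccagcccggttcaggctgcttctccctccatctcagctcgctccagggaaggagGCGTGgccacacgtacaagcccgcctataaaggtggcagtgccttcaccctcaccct
AHRR, chr5:321464-321713, plus strand: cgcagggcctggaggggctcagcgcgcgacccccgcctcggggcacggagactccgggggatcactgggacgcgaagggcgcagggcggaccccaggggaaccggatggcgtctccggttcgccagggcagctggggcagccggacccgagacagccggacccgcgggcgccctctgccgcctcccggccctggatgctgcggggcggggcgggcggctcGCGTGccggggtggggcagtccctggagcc
TIPARP, chr3:156674340-156674589, plus strand: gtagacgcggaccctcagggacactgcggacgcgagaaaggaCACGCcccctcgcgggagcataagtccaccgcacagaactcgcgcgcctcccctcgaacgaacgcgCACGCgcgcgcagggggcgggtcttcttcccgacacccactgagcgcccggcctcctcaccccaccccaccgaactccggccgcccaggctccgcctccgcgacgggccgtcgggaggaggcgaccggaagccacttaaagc

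In the CYP1A1 window the core lay 57 to 53 bases before the start. That of AHRR lay 30 to 26 bases before the start and also matched the longer form TNGCGTG, which overlaps the core. TIPARP had 2 cores on the opposite strand, 208 to 204 and 142 to 138 bases before the start. The windows of AHR and ARNT held none. Sequence farther upstream of any of these genes was not searched, so cores outside the windows are not counted here. AHRR has a later annotated start, at position 322610, whose window held 2 cores and no longer form, and TIPARP has 2 later starts, at 156674926 and 156676664, whose windows held none; these windows are not printed. The core stood in 32.2% of all 35116 promoter windows of the same length and the longer form in 4.52%, so a match by itself is common, and a match is a description of letters and not of binding.

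On the same build, CYP1A1 spans 74719542 to 74725528 of chromosome 15 on the minus strand and CYP1B1 spans 38067509 to 38076151 of chromosome 2 on the minus strand. TIPARP lies at 156674590 to 156706770 of chromosome 3 and AHRR at 321714 to 438285 of chromosome 5, both on the plus strand. AHR lies at 17298652 to 17346147 of chromosome 7 on the plus strand and ARNT at 150809713 to 150876599 of chromosome 1 on the minus strand. Whether reads were counted by strand is not given in the sources used here, so reads from a gene and from an antisense partner cannot be told apart. The antisense rows were small: CYP1B1-AS1 had 9 to 31 counts per library and TIPARP-AS1 had 2 to 15. CYP1B1 also overlaps RMDN2 on the opposite strand and RMDN2-AS1 on the same strand.

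Levels below are CPM, counts relative to the library total after TMM scaling (a correction of totals for composition), and ± is the SD over 3 libraries unless SE is written. Library totals were 28673938 to 41310069 counts in PRGL493, 37833345 to 43027190 in the knockdown and 30845845 to 33020196 in control. ACSL4 itself had 29.5, 23.7 and 27.6 CPM in the knockdown libraries, against 342, 339 and 366 CPM in control, a log2 fold change of -3.69 (SE 0.07). PRGL493 libraries had 333, 349.9 and 360.0 CPM of ACSL4, a log2 fold change of -0.01 (SE 0.06) against control. Knockdown replicate 2 differed more from its group than any other library did, its chi-square over genes, divided by its degrees of freedom, being 34.1 against knockdown replicate 1 and 19.2 against knockdown replicate 3, where the other 7 pairs within groups gave 4.03 to 10. Markers of the line such as VIM were abundant (VIM 1611 to 1811 CPM over the 9 libraries), while ESR1 was at most at 0.0306 CPM. Of 16 markers of other cell types 10 did not pass the filter. The summed level of all 16 was 116 to 125 CPM in PRGL493, 165 to 176 CPM in the knockdown and 144 to 157 CPM in control. Without CD68, a lysosomal protein, the sum was 23.6 to 24.6, 24.9 to 26.7 and 21.7 to 22.8 CPM in those groups. The part of these differences in the results below was not tested.

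AHR, the receptor, was at about the same level in all groups. In RNA of a whole culture, as here and below, fewer cells with a transcript and less of it per cell cannot be told apart. The PRGL493 libraries had 267, 276 and 333 CPM, the knockdown libraries 277, 256 and 256 CPM and the control libraries 285, 274 and 303 CPM. PRGL493 replicate 3 was the highest of the 9, and the ranges of all 3 groups overlapped. The log2 fold change was 0.02 (SE 0.07) in PRGL493 against control, -0.13 (SE 0.07) in the knockdown against control and 0.15 (SE 0.07) in PRGL493 against the knockdown. The first of these turned negative, to -0.09, without PRGL493 replicate 3 and to -0.01 without control replicate 2, and it ran up to 0.08 without PRGL493 replicate 1. The third was 0.04 without PRGL493 replicate 3.

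ARNT, which pairs with AHR on DNA and with the hypoxia factors as well, also varied little. It had 53.8, 58.3 and 55.4 CPM in PRGL493, 51.4, 51.4 and 47.1 CPM in the knockdown, and 51.7, 53.6 and 54.3 CPM in control. All knockdown libraries lay below all control libraries and PRGL493 overlapped control. The log2 fold changes were 0.07 (SE 0.06) in PRGL493 against control, -0.09 (SE 0.06) in the knockdown against control and 0.16 (SE 0.06) in PRGL493 against the knockdown. The first was 0.03 without PRGL493 replicate 2, and the second -0.05 without knockdown replicate 3. Per kilobase of exon, AHR was 3.38 ± 0.44 times as abundant as ARNT in PRGL493, 3.40 ± 0.16 times in the knockdown and 3.48 ± 0.17 times in control, so this ratio of levels was alike in the 3 groups within its spread.

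AHRR, the repressor that competes with AHR for ARNT, was highest in the knockdown, unlike the cytochromes. Knockdown libraries had 14.6, 14.7 and 16.7 CPM, from 642, 557 and 653 counts. PRGL493 libraries had 7.93, 8.74 and 7.78 CPM, from 326, 250 and 251 counts, and control libraries had 8.06, 6.26 and 6.76 CPM, from 246, 193 and 221 counts. Each knockdown library was above every library of the other groups, and PRGL493 and control overlapped. The mean was 15.4 ± 1.20 CPM in the knockdown and 7.02 ± 0.93 CPM in control, 2.19-fold, a log2 fold change of 1.13 (SE 0.10) that was the 90th highest of the 14135 genes in this contrast. In PRGL493 the log2 fold change was -0.92 (SE 0.10) against the knockdown and 0.21 (SE 0.11) against control, the second being 0.32 without control replicate 1 and 0.14 without control replicate 2. The level of AHR over that of AHRR per kilobase was 29.6 ± 4.94 in PRGL493, 14.1 ± 1.49 in the knockdown and 33.9 ± 4.24 in control, and the knockdown values of this ratio did not overlap the others. AHRR shares its locus and strand with PDCD6, a calcium-binding protein, and reads of the overlap may be assigned to either. PDCD6 averaged 46.3 CPM in PRGL493, 49.7 CPM in the knockdown and 42.4 CPM in control, with log2 fold changes of 0.13 (SE 0.06) in PRGL493 and 0.23 (SE 0.06) in the knockdown, and its part in the AHRR difference was not tested.

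**Figure D1:**
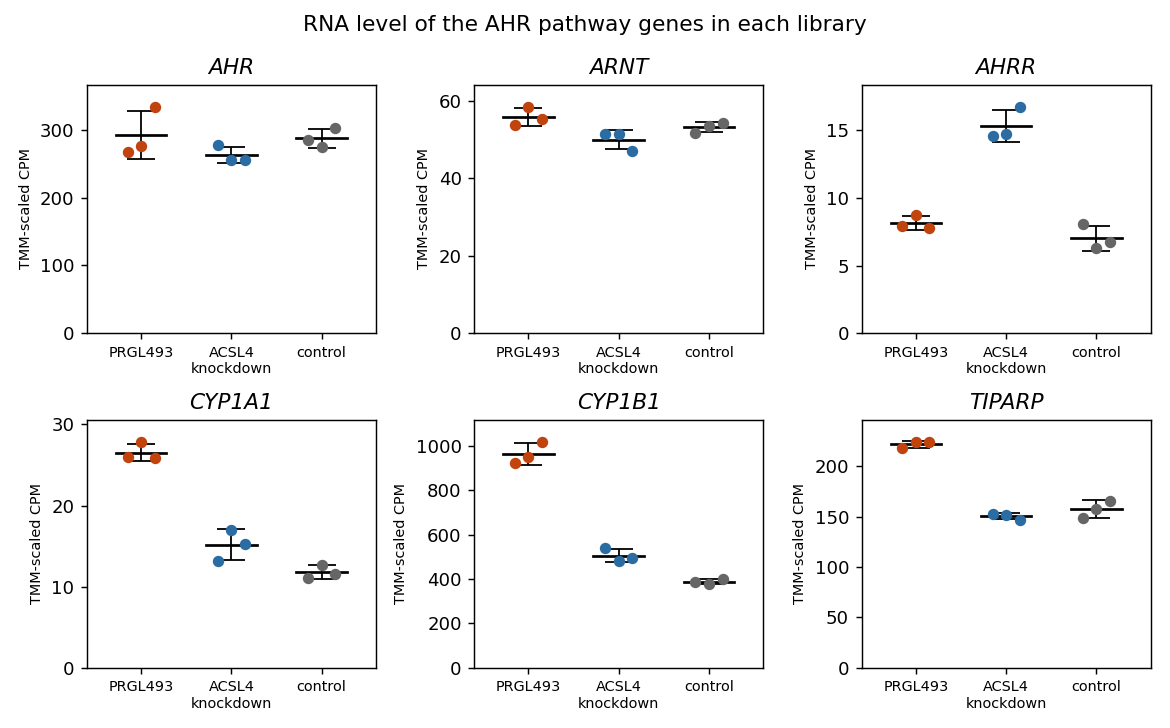
RNA level (TMM-scaled CPM, linear axes from 0) of the 6 genes in the 3 libraries each of PRGL493, ACSL4 knockdown and control cells. Points are libraries, long bars the mean and whiskers the SD; CYP1A1 and CYP1B1 are highest in PRGL493 and intermediate in the knockdown, TIPARP is high in PRGL493 alone, AHRR is high in the knockdown alone, and AHR overlaps in all groups.

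CYP1B1 was the most abundant cytochrome of the 6 genes and the one with the largest difference in PRGL493. PRGL493 libraries had 922, 950.2 and 1017 CPM, knockdown libraries 538, 483 and 496 CPM, and control libraries 387, 377 and 401 CPM. No 2 groups overlapped, and the order was PRGL493, knockdown, control. The mean was 963 ± 48.8 CPM in PRGL493 and 388 ± 11.7 CPM in control, 2.48-fold, and its log2 fold change of 1.31 (SE 0.05) was the 32nd highest of 14135. The knockdown averaged 506 ± 28.5 CPM, 1.30-fold over control with a log2 fold change of 0.38 (SE 0.05), the 1154th highest in that contrast. PRGL493 exceeded the knockdown by 1.90-fold, a log2 fold change of 0.93 (SE 0.05). At 11627 to 37891 counts per library, counting error was small beside these differences.

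CYP1A1, the classical reporter of AHR activity, had the same order of groups at a far lower level. It had 26.0, 27.8 and 25.8 CPM in PRGL493 (1069, 795 and 834 counts), 13.2, 17.0 and 15.3 CPM in the knockdown (577, 646 and 596 counts), and 11.1, 12.7 and 11.6 CPM in control (339, 390 and 380 counts). PRGL493 stood well clear of both other groups, whereas the lowest knockdown library, at 13.2 CPM, was just above the highest control library, at 12.7 CPM. The mean was 26.5 ± 1.09 CPM in PRGL493, 15.2 ± 1.93 CPM in the knockdown and 11.8 ± 0.79 CPM in control. PRGL493 was 2.25-fold above control with a log2 fold change of 1.17 (SE 0.09), the 55th highest of 14135, and 1.75-fold above the knockdown with a log2 fold change of 0.81 (SE 0.09). The knockdown was 1.29-fold above control with a log2 fold change of 0.36 (SE 0.09), which was 0.27 without knockdown replicate 2, its highest library. CYP1A2, the neighbour of CYP1A1 on chromosome 15 and mainly a liver enzyme, had at most 6 counts in any library and did not pass the filter.

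Per kilobase of exon, CYP1B1 had 175 CPM in PRGL493, 92.1 CPM in the knockdown and 70.8 CPM in control, and CYP1A1 had 8.61, 4.92 and 3.82 CPM in those groups. The level of CYP1B1 over that of CYP1A1 per kilobase was 20.4 ± 1.51 in PRGL493, 19.0 ± 3.57 in the knockdown and 18.6 ± 1.58 in control. These ratios overlapped between the groups, so both cytochromes differed by similar factors while CYP1B1 made up most of the CYP1 RNA in each.

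TIPARP, a mono-ADP-ribosyltransferase that is induced by AHR and modifies it, was higher in PRGL493 alone. PRGL493 libraries had 218, 224 and 224 CPM, knockdown libraries 153, 152 and 147 CPM, and control libraries 149, 158 and 166 CPM. The knockdown and control ranges overlapped and the PRGL493 libraries lay above both. The mean was 222 ± 3.51 CPM in PRGL493, 150.4 ± 3.22 CPM in the knockdown and 158 ± 8.44 CPM in control. PRGL493 was 1.41-fold above control with a log2 fold change of 0.49 (SE 0.05), the 881st highest, and 1.48-fold above the knockdown with a log2 fold change of 0.56 (SE 0.05). The knockdown against control gave -0.07 (SE 0.05), which was -0.11 without control replicate 1 and -0.03 without control replicate 3.

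**Figure D2:**
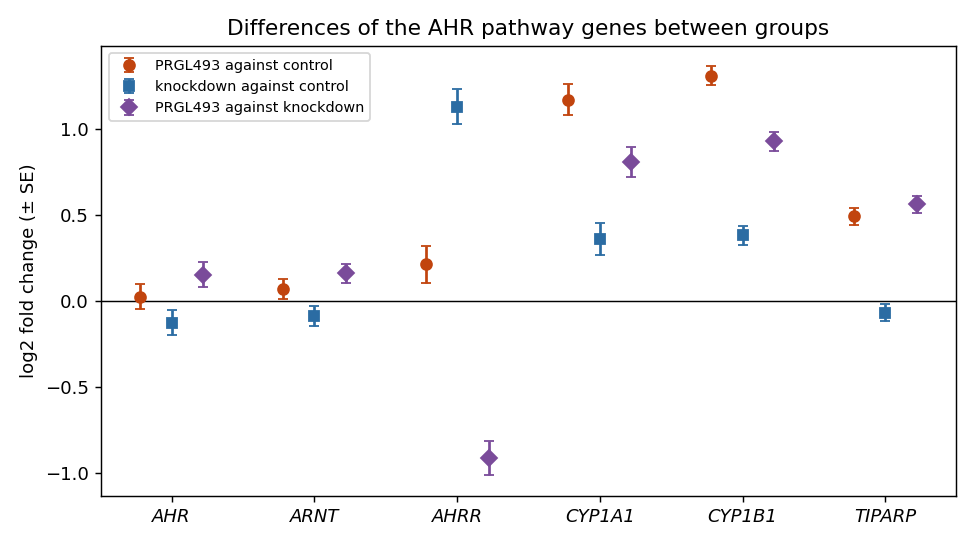
Log2 fold change of the 6 genes (vertical axis, with SE as bars) in PRGL493 against control (circles), knockdown against control (squares) and PRGL493 against knockdown (diamonds), each pair of contrasts sharing a group. CYP1A1 and CYP1B1 stand at 1.17 and 1.31 in PRGL493 against control and at 0.36 and 0.38 in knockdown against control, and AHRR at 1.13 in knockdown against control and -0.92 in PRGL493 against knockdown.

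Counted together, 3 of the 6 genes (CYP1A1, CYP1B1 and TIPARP) had every PRGL493 library above every control library, and 3 overlapped; over all genes tested 30.1% lay above in this way, 27.2% below and 57.2% on either side. In the knockdown 3 genes (CYP1A1, CYP1B1 and AHRR) lay above control and ARNT lay below it, where 20.8% of all genes lay above, 21.2% below and 42.0% on either side. Against the knockdown, 4 genes (CYP1A1, CYP1B1, ARNT and TIPARP) lay above in PRGL493 and AHRR lay below, where 28.8% of all genes lay above, 27.3% below and 56.0% on either side. The members were chosen with these contrasts known, so nothing is read from these counts. The comparisons share libraries, PRGL493 and the knockdown being set against the same 3 control libraries, and the values are therefore given side by side only. The median size of a log2 fold change over all genes was 0.202 in PRGL493 against control, 0.16 in the knockdown against control and 0.239 in PRGL493 against the knockdown.

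Among the 11072 genes whose log2 CPM averaged 2 or more, those whose log2 CPM followed CYP1B1 most closely over the 9 libraries were FAM111A, ST7, PHTF1, DCAF6 and ATP10D, with Pearson correlations of 0.9952, 0.9938, 0.9926, 0.9921 and 0.9917. FAM111A averaged 70.6 CPM in PRGL493, 49.7 CPM in the knockdown and 44.2 CPM in control. CYP1A1 correlated with CYP1B1 at 0.9592 and TIPARP at 0.9129, while AHR stood at 0.27, ARNT at 0.53 and AHRR at -0.05. Among the genes nearest to CYP1A1 were PCNA, NMT1, NCAPH and CDAN1, at 0.9912, 0.9866, 0.9857 and 0.9855. PCNA, the sliding clamp of DNA polymerases, averaged 122 CPM in PRGL493, 92.7 CPM in the knockdown and 80.2 CPM in control. These correlations describe 9 libraries that fall into 3 groups, so they mostly record the order of the group means.

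The wider pathway was read from lists of genes named from pathway knowledge. Earlier results of the same libraries were known when the lists were made, so calls of their members are given as a description. The genes were tested in edgeR's quasi-likelihood fit over all 14135 genes with Benjamini-Hochberg adjustment, and called at an adjusted p below 0.05. In that test 21.4% of all genes were called higher and 20.4% lower in PRGL493 against control (41.8% in all), 14.7% higher and 15.3% lower in the knockdown against control (30.1% in all), and 26.0% higher and 24.4% lower in PRGL493 against the knockdown (50.4% in all). Scaling by library totals alone moved the share of calls that were higher in the knockdown against control to 59.8%, against 49.0% with TMM scaling.

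Other reported AHR targets moved in both directions. No direction was set beforehand for any gene of this list, so counts of rises and falls do not show whether the targets followed the receptor. Of 26 listed, 19 passed the filter; 5 rose and 7 fell in PRGL493 against control, 4 rose and 8 fell in the knockdown against control, and 7 were higher and 4 lower in PRGL493 against the knockdown. Their median log2 fold changes were 0.02, -0.14 and 0.12, where all genes had 0.01, 0.00 and 0.01. The shares called were 63.2%, 63.2% and 57.9%, beside 41.8%, 30.1% and 50.4% of all genes. NQO1, a quinone reductase driven by both AHR and NRF2, had 160.0, 158 and 167 CPM in PRGL493, 109, 128 and 108 CPM in the knockdown, and 124, 127 and 129 CPM in control. NQO1 rose in PRGL493 by 0.35 on the log2 scale (SE 0.06, adjusted p = 0.00026) and stood 0.49 higher than in the knockdown (SE 0.06, adjusted p = 6.3e-06), and its knockdown value against control was -0.14 (SE 0.06, adjusted p = 0.1). NFE2L2, which encodes NRF2, averaged 190.4 ± 5.24 CPM in PRGL493, 153 ± 3.04 CPM in the knockdown and 175 ± 6.28 CPM in control. It fell in the knockdown by 0.19 (SE 0.05, adjusted p = 0.0064) and was 0.31 higher in PRGL493 than in the knockdown (SE 0.05, adjusted p = 5e-05).

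Several targets of the list moved the same way in PRGL493 and in the knockdown, which are set against the same control libraries. CDKN1B, which encodes the cell-cycle inhibitor p27, rose to 59.5 ± 2.54 CPM in PRGL493 and 58.5 ± 1.09 CPM in the knockdown, against 35.7 ± 1.03 CPM in control, with log2 fold changes of 0.73 (SE 0.06, adjusted p = 3.5e-08) and 0.71 (SE 0.06, adjusted p = 7.3e-08). The cytokine gene IL6 fell to 105 ± 4.23 CPM in PRGL493 and 96.0 ± 3.17 CPM in the knockdown, against 255 ± 3.69 CPM in control, and IL1B fell to 78.6 ± 3.15 and 76.4 ± 4.49 CPM in those groups, against 171 ± 6.31 CPM in control. HES1, a transcriptional repressor best known downstream of Notch, had 34.2, 33.8 and 34.3 CPM in PRGL493, 6.59, 4.43 and 5.03 CPM in the knockdown, and 385, 424 and 314 CPM in control. Its log2 fold change was -3.46 (SE 0.13, adjusted p = 3.2e-08) in PRGL493 and -6.12 (SE 0.16, adjusted p = 2.3e-09) in the knockdown. SERPINB2, an inhibitor of plasminogen activators, is the called target whose direction differed: it had 0.292, 0.594 and 0.465 CPM in PRGL493, 3.95, 4.98 and 3.54 CPM in the knockdown, and 1.67, 1.49 and 1.19 CPM in control. SERPINB2 fell by 1.73 in PRGL493 (SE 0.27, adjusted p = 9.6e-05) and rose by 1.52 in the knockdown (SE 0.20, adjusted p = 3.4e-05), and PRGL493 against the knockdown gave -3.24 (SE 0.24, adjusted p = 1.8e-08).

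**Figure D3:**
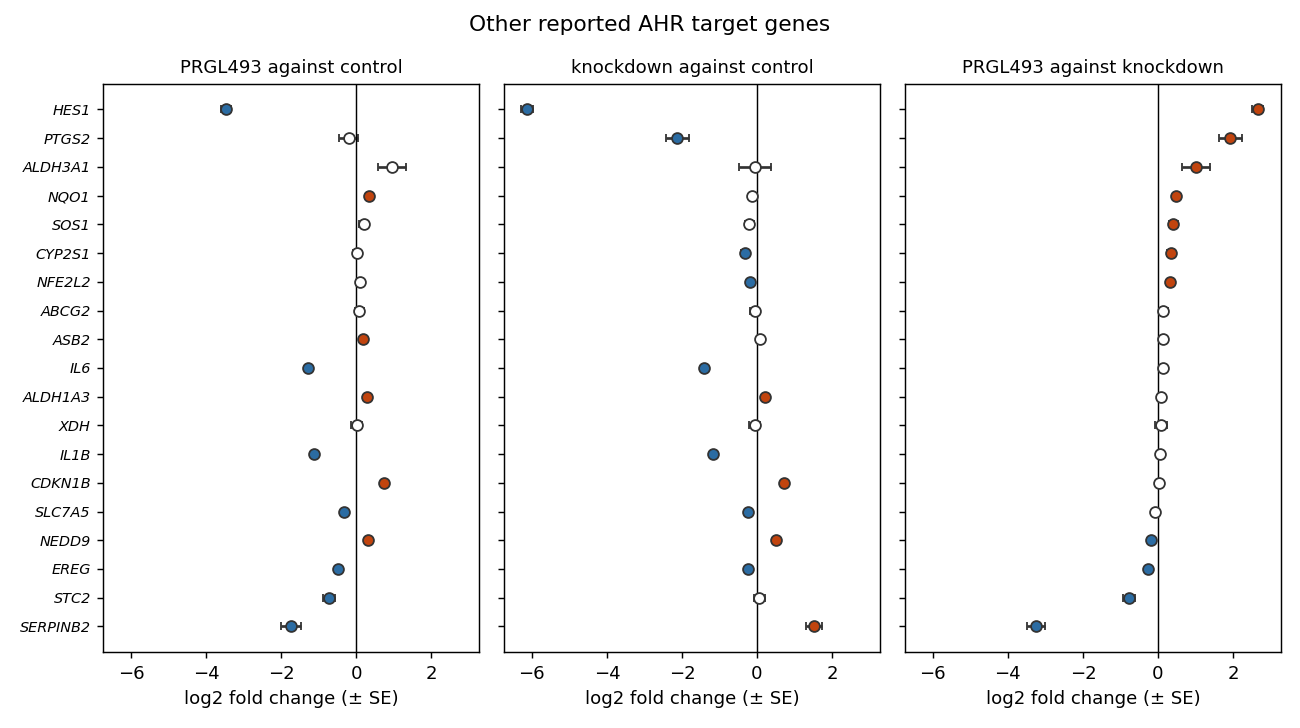
Log2 fold change (horizontal axis, the same in each panel, with SE as bars) of the 19 other reported AHR targets that passed the filter, ordered by PRGL493 against knockdown. Orange points were called higher, blue points lower and open points were not called; HES1, IL6 and IL1B lie left of 0 in both contrasts with control and CDKN1B right of it.

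The proteins that hold the receptor in the cytoplasm or work with it on DNA rose in part in PRGL493. Of 15 such genes, all of which passed the filter, 6 rose in PRGL493 against control, with a list median of 0.20. When knockdown replicate 2 was left out, 10 were called (9 higher and 1 lower). With all libraries, the share of the list called in PRGL493 against control was just below the 41.8% of all genes. In the knockdown against control the share was below the 30.1% of all genes. In PRGL493 against the knockdown it was 66.7%, beside 50.4% of all genes. HSP90AA1, the inducible HSP90 chaperone that holds ligand-free AHR, had 1566, 1584 and 1585 CPM in PRGL493, 1230.1, 1266 and 1206 CPM in the knockdown, and 1253, 1239 and 1229 CPM in control, and it rose by 0.35 on the log2 scale (SE 0.04, adjusted p = 8.8e-06). The coactivator gene NCOA2 rose by 0.53 (SE 0.10, adjusted p = 0.0004), and ARNT2, an ARNT paralogue, rose by 0.34 (SE 0.06, adjusted p = 0.00027). RELA, the NF-kappaB subunit that can bind AHR, rose by 0.33 (SE 0.05, adjusted p = 0.00012). In the knockdown 3 genes of this list were called against control, 1 higher and 2 lower, and leaving out control replicate 1, 2 or 3 left 1, 0 and 1. Against the knockdown, 9 were higher in PRGL493 and 1 lower, with 6 called without PRGL493 replicate 1 or 2.

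Relatives of AHR in the bHLH-PAS family, among them hypoxia factors, moved in both directions in PRGL493. Of 15 listed 12 passed the filter, and 3 rose and 6 fell against control, with a median log2 fold change of -0.25. These calls were 75.0% of the genes tested, beside 41.8% over all genes. In the knockdown against control the shares were 25.0% and 30.1%. The hypoxia factors EPAS1 and HIF1A, which also pair with ARNT, fell by 0.40 (SE 0.05, adjusted p = 1.4e-05) and 0.31 (SE 0.05, adjusted p = 9.7e-05). HIF1A averaged 484 ± 4.84 CPM in PRGL493, 591 ± 30.2 CPM in the knockdown and 601 ± 20.2 CPM in control. The circadian repressor gene PER1 fell in both, by 0.55 in PRGL493 (SE 0.10, adjusted p = 0.0004) and by 0.56 in the knockdown (SE 0.10, adjusted p = 0.00057). In the knockdown 3 of the 12 were called, 1 higher and 2 lower, and PER1 was the called gene that kept its call when any library was left out. Leaving out control replicate 1, 2 or 3 or knockdown replicate 3 left 1 call in each case. ARNT2 per ARNT, a ratio per kilobase, was 1.76 ± 0.14 in PRGL493, 1.76 ± 0.18 in the knockdown and 1.46 ± 0.07 in control.

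Many cytochromes outside the CYP1 family did not pass the filter, and some of those that passed differed between groups. Of 32 genes of families 2 to 4, which metabolise drugs and fatty acids, 12 had no count in any library and 7 passed the filter. In the knockdown against control 2 of the 7 fell, with 1 called without control replicate 1 or 2 or knockdown replicate 1. Against the knockdown, 3 were higher in PRGL493. The shares of all genes called were 41.8% in PRGL493 against control, 30.1% in the knockdown against control and 50.4% in PRGL493 against the knockdown. CYP2U1, a fatty acid hydroxylase, was the gene of the 7 called in PRGL493 against control, with 61.6, 62.5 and 61.6 CPM in PRGL493, 49.9, 44.3 and 48.1 CPM in the knockdown, and 44.7, 44.8 and 44.0 CPM in control (log2 fold change 0.48, SE 0.06, adjusted p = 5.9e-06). Of 22 sterol, steroid and retinoid cytochromes 11 passed the filter; 2 rose and 2 fell in PRGL493, but 1 and 1 without control replicate 1 or 3 or PRGL493 replicate 1, and 3 rose and 1 fell in the knockdown. CYP51A1, the lanosterol demethylase of cholesterol synthesis, rose to 192 ± 3.32 CPM in PRGL493 and fell to 93.3 ± 3.80 CPM in the knockdown, against 120.1 ± 3.45 CPM in control. Its log2 fold changes were 0.67 (SE 0.05, adjusted p = 2.3e-08) and -0.36 (SE 0.05, adjusted p = 5e-05). PRGL493 against the knockdown gave 1.04 for CYP51A1 (SE 0.05, adjusted p = 8.6e-11). In that contrast 2 of the 11 genes were higher and 4 lower. CYP24A1, which breaks down vitamin D, rose in the knockdown to 4.84 ± 0.34 CPM, against 2.08 ± 0.20 CPM in control (log2 fold change 1.22, SE 0.15, adjusted p = 9.8e-06). It had 2.18 ± 0.29 CPM in PRGL493, a log2 fold change of -1.15 against the knockdown (SE 0.14, adjusted p = 5.4e-06). CYP26B1, which breaks down retinoic acid, fell by 0.61 in PRGL493 (SE 0.10, adjusted p = 0.0002).

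The partners that pass electrons to cytochromes P450 were listed as 9 genes, all of which passed the filter. In PRGL493 against control 5 rose and 1 fell, with a list median of 0.25. This was 66.7% of the list, beside 41.8% of all genes. In the knockdown against control the shares were 33.3% and 30.1%. POR, the reductase that serves the microsomal cytochromes including CYP1A1 and CYP1B1, had 85.0, 81.9 and 83.7 CPM in PRGL493, 50.8, 59.8 and 57.3 CPM in the knockdown, and 68.0, 66.9 and 62.9 CPM in control. POR rose by 0.34 in PRGL493 (SE 0.06, adjusted p = 0.00036) and fell by 0.24 in the knockdown (SE 0.06, adjusted p = 0.0091), so the 3 groups did not overlap. CYB5R3, the cytochrome b5 reductase, rose by 0.32 in PRGL493 (SE 0.05, adjusted p = 0.00022). In the knockdown 1 rose and 2 fell, and 5 were called without knockdown replicate 1. CYB5A rose there by 0.38 (SE 0.08, adjusted p = 0.0011), and FDXR, which serves the mitochondrial cytochromes, fell by 0.40 (SE 0.09, adjusted p = 0.0035).

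Enzymes of the later steps of detoxification included 35 genes with a row, of which 28 passed the filter. In PRGL493 against control 7 rose and 2 fell, with 5 called when PRGL493 replicate 1 was left out. With all libraries, 32.1% of the genes tested were called there, beside 41.8% of all genes. In the knockdown against control the shares were 25.0% and 30.1%. EPHX1, the microsomal epoxide hydrolase that acts on CYP1 products, averaged 133 ± 0.80 CPM in PRGL493, 98.2 ± 11.4 CPM in the knockdown and 96.8 ± 4.45 CPM in control (log2 fold change in PRGL493 0.46, SE 0.07, adjusted p = 5.6e-05). MGST1, a microsomal glutathione transferase, rose by 0.45 (SE 0.06, adjusted p = 1.3e-05), and CES2, a carboxylesterase, rose by 0.40 (SE 0.06, adjusted p = 4.6e-05), while TPMT, a thiopurine methyltransferase, fell by 0.28 (SE 0.07, adjusted p = 0.0032). In the knockdown 3 rose and 4 fell, and the 7 calls became 3, 2 and 2 without control replicate 1, control replicate 3 and knockdown replicate 3. AKR1C3, a ketosteroid reductase, fell there by 0.58 (SE 0.08, adjusted p = 2.9e-05) to 30.2 ± 3.45 CPM, against 45.1 ± 2.18 CPM in control, and had 49.1 ± 2.57 CPM in PRGL493; its close homologues may share reads with it. Of 8 efflux transporters 7 passed the filter, and ABCC1 was called in PRGL493, where it fell by 0.27 (SE 0.05, adjusted p = 0.00085), with 2 called without knockdown replicate 1 or 2. In the knockdown 1 of the 7 was called, as lower, and 0 without control replicate 1 or 2. The share called was 14.3% in each contrast with control, beside 41.8% and 30.1% of all genes.

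**Figure D4:**
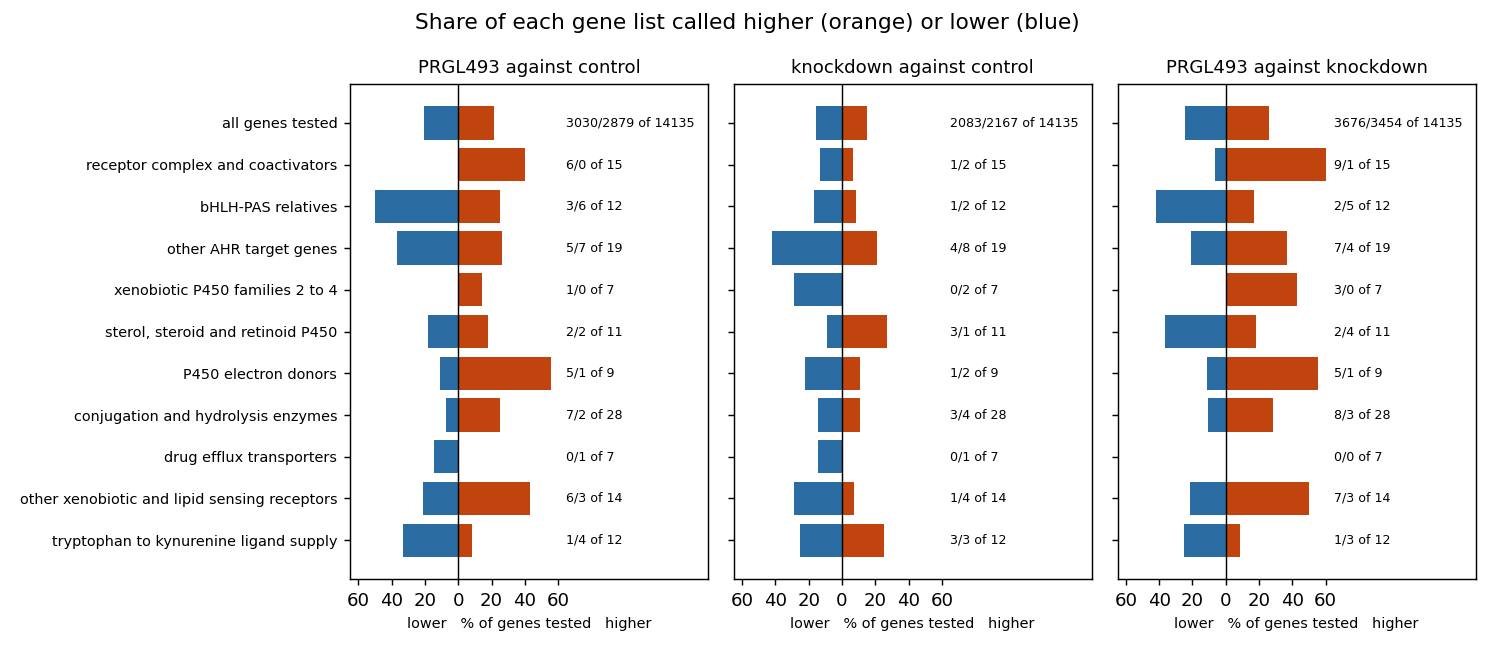
Share of each gene list called higher (orange, right) or lower (blue, left) in percent of the genes tested, with the share over all 14135 genes in the top row, for PRGL493 against control, knockdown against control and PRGL493 against knockdown. The numbers at the right of each panel are genes higher/lower of genes tested, such as 5/1 of 9 for the electron donors and 5/7 of 19 for the other AHR targets in PRGL493 against control.

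Other sensors of xenobiotics and lipids changed in both directions. Of 20 listed 14 passed the filter, and 6 rose and 3 fell in PRGL493. These were 64.3% of the genes tested, beside 41.8% of all genes, and the knockdown had 35.7% beside 30.1%. KEAP1, which holds NRF2 in check, rose by 0.43 (SE 0.06, adjusted p = 1.8e-05), and GPER1, a membrane oestrogen receptor, rose by 0.67 (SE 0.10, adjusted p = 5e-05). The vitamin D receptor gene VDR fell by 0.60 (SE 0.09, adjusted p = 5.1e-05), and RARA, a retinoic acid receptor, fell by 0.41 (SE 0.06, adjusted p = 3.4e-05). The knockdown gave 1 higher and 4 lower, and the 5 calls became 1, 3, 2 and 3 without control replicates 1, 2 and 3 and knockdown replicate 2.

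Genes that supply tryptophan-derived AHR ligands were also listed, and 12 of 18 passed the filter. In PRGL493 1 rose and 4 fell, but 11 were called (4 higher and 7 lower) without knockdown replicate 2 and 8 (3 higher and 5 lower) without PRGL493 replicate 3. With all libraries, 41.7% of the genes tested were called in PRGL493 against control, beside 41.8% of all genes. SLC7A5 and SLC3A2, the subunits of the transporter that imports tryptophan and kynurenine, fell by 0.31 (SE 0.05, adjusted p = 0.00022) and 0.44 (SE 0.06, adjusted p = 1.2e-05). SLC7A5 had 439, 450.1 and 394 CPM in PRGL493, 446, 443 and 472 CPM in the knockdown, and 536, 536 and 522 CPM in control, and it also fell in the knockdown, by 0.23 (SE 0.05, adjusted p = 0.0044). ALDH1A3, a retinal dehydrogenase on this list and among the AHR targets, rose by 0.29 in PRGL493 (SE 0.05, adjusted p = 0.00027) and by 0.20 in the knockdown (SE 0.05, adjusted p = 0.0069). In the knockdown 3 rose and 3 fell. MAOA, a monoamine oxidase, fell by 0.34 (SE 0.05, adjusted p = 0.00017), and its paralogue MAOB rose by 0.46 (SE 0.11, adjusted p = 0.0047).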

How the data were processed

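RNA-seq of 9 MDA-MB-231 libraries was used, in 3 groups of 3 taken from the sample titles. The authors deposited an expected count (an estimated number of reads) per gene symbol and library, not scaled for depth, as read counts per the file headers, made from reads on GRCh38, which the submitters' processing notes name. Of these values 10.5% were not whole. Which aligner, counter, annotation and strand setting were used is not given in the sources at hand. The design had assumed whole counts, and the same test was applied to expected counts rounded to whole numbers.

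Of 26475 rows, 14135 passed edgeR's filterByExpr. Counts were scaled with TMM factors, and all 9 libraries entered 1 quasi-likelihood fit with robust estimation (glmQLFit, edgeR 4.0.16, R 4.3.3) and group as its term, at 6 residual degrees of freedom and a biological coefficient of variation of 6.38%. Benjamini-Hochberg adjustment ran over every gene of a contrast, with calls made at adjusted p below 0.05. Log2 CPM for the search of alike patterns used a prior count of 2. Levels per kilobase used the exon union of GENCODE v29 genes. The fit was tested on simulated data.

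The members and the gene lists were chosen with earlier results of these data known. In each contrast, up to 4 called genes of a list with the smallest adjusted p were to be named, besides the members, ACSL4 and the 5 genes most like CYP1B1 and CYP1A1. Of 98 such calls, 18 were lost under some alternative, and the text counts these genes without naming their calls. PDCD6, the antisense rows and CYP1A2 were looked up for their place or role, and the rule does not name them. One gene that the rule names is not reported here. There were 16 alternatives, 9 of which left out a library. DESeq2 1.42.0 was among the others.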

Additional observations from a re-analysis of the deposited data

How the results depend on the processing

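The log2 fold changes of the 6 genes and the counts of called genes and of called AHR targets were recomputed under 16 alternatives, and no such count moved by over 1.5 times. The 6 genes were not tested, and the sign of their log2 fold changes was kept under all 16 except for AHR in PRGL493 against control, which ran from -0.09 to 0.08. On library totals alone, the knockdown against control gave -0.06 for ARNT and -0.03 for TIPARP, in place of -0.09 and -0.07. For CYP1B1 in PRGL493 against control the log2 fold change ran from 1.26 to 1.33 and for CYP1A1 from 1.13 to 1.22. CYP1A1 in the knockdown against control ran from 0.27 to 0.46, AHRR there from 1.05 to 1.24, and TIPARP in PRGL493 against control from 0.46 to 0.53. Leaving out single libraries, the genes called ran from 4769 to 7132 in PRGL493 against control, from 3074 to 4770 in the knockdown against control and from 5941 to 7303 in PRGL493 against the knockdown. DESeq2 called 5657, 4128 and 6889 genes in these contrasts.

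With the replicate number as a block, 5635, 3879 and 6857 genes were called, against 5909, 4250 and 7130 without the block. The numbers were not taken to pair the libraries over the 3 groups, since correlations of same-numbered libraries' deviations from their group means ran from -0.0841 to 0.152. Between control and knockdown each library did correlate best with its own number, at 0.108, 0.152 and 0.0619. Different numbers gave -0.138 to 0.0249 there. Same-numbered correlations with PRGL493 libraries were all negative, from -0.0841 to -0.0151.

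Of the calls of single named genes recomputed under the alternatives, 86 were lost, 1796 held their side and none reversed. AHRR rests on 193 to 653 counts per library and CYP1A1 on 339 to 1069, so their levels are less precise than those of CYP1B1. Beside the left-out libraries named with each list, counts of list members moved by over 1.5 times as follows. With only the 2 groups compared in the fit, PRGL493 against control gave 10 called genes of the receptor complex list in place of 6, 9 of the tryptophan list in place of 5 and 2 efflux transporters in place of 1, which a minimum of 1 CPM in 3 libraries gave too. The same change left, in the knockdown against control, 4 of 7 conjugation enzymes, 3 of 5 sensors and 1 of 2 cytochromes of families 2 to 4, the last also with the minimum of 1 CPM. The replicate block left 1 of 3 receptor complex genes there, and library totals gave 5 electron donors in place of 3. The causes were not tested.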
